A study of Mus musculus with 6 samples.

Results

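The cytosolic ribosomal protein genes were followed in MYC-driven mouse liver tumors treated with an inhibitor of PRMT5. They were taken by symbol (Rpl or Rps followed by a number with an optional a, l or x, together with Rplp0, Rplp1, Rplp2 and Rpsa), which gave 82 genes of the 47643 in the table, 50 of the large and 32 of the small subunit. Symbols of the Rps6k kinases and of pseudogenes ending in -ps were left out by this choice. The treated mice were of strain FVB/N, carried the transgenes LAP-tTA and tetO-MYC, and were dosed for 2 weeks with 50 mg/kg/day GSK3326595, which blocks PRMT5, a symmetric arginine methyltransferase. The vehicle mice had the same strain and transgenes. Both groups had doxycycline at 100 mg/L in the drinking water up to 4 weeks of age, and MYC had then been on for 8 weeks when dosing began. In this system the LAP promoter drives the tetracycline transactivator in hepatocytes, so that MYC is off while doxycycline is given. Every library is labelled liver tumor with MYC on, although the protocol speaks of RNA from liver, and livers without MYC were not analysed here. There were 3 GSK3326595 and 3 vehicle libraries of total RNA with 25814339 to 33621083 expected counts each. The labels do not say that each library is a separate animal, so p-values below cover only sample-to-sample spread. Along the leading principal component of all genes (38.1% of the variance) GSK3326595 replicate 2 stood apart at 103.1, with the other 5 libraries between -50.2 and 9.37. Prmt5 itself had 51.3, 96.0 and 129.9 CPM in the GSK3326595 libraries, against 69.9, 48.9 and 84.9 CPM in the vehicle libraries (0.44 ± 0.37 on the log2 scale, ± SE; edgeR adjusted p = 0.753). The drug blocks the enzyme, so this mRNA does not check the labels.

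Ribosomal proteins are assembled with ribosomal RNA in the nucleolus into the small subunit, which decodes the mRNA, and the large subunit, which forms the peptide bond. Most are present in a single copy per ribosome, and their genes are expressed in nearly every cell at high and similar levels. Their mRNAs begin with a terminal oligopyrimidine (TOP) tract, a C followed by a run of pyrimidines, through which mTOR signaling and the protein LARP1 control their translation and stability. MYC is known to raise ribosomal protein genes and ribosome production, and PRMT5 is known from human cells to methylate the ribosomal protein RPS10.

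The start-site sequences of some of these genes show a pyrimidine run over the annotated start, where a TOP tract would lie. RefSeq promoter entries (GRCm38.p6, the build of mm10) were matched by symbol for 60 of the 82 genes. The sequences below cover 15 bases before and 15 bases from the annotated start on, in the gene's direction, and the capitals mark the pyrimidine run that includes the start base. They are 8 genes with a run of at least 6 pyrimidines there and a small p in the comparison, picked with those values known.
Rps18 (chr17:33955651-33955680, minus strand): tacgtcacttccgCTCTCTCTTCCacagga
Rps27 (chr3:90213634-90213663, minus strand): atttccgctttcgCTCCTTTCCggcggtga
Rpl34 (chr3:130730323-130730352, minus strand): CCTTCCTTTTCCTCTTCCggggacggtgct
Rps10 (chr17:27635230-27635259, minus strand): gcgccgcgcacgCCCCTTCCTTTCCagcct
Rps21 (chr2:180257364-180257393, plus strand): taccgaggacccgCCCTCCTgcccaatagt
Rplp2 (chr7:141447636-141447665, plus strand): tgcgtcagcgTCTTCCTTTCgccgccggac
Rpl38 (chr11:114668565-114668594, plus strand): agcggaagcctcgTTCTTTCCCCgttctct
Rps6 (chr4:86857353-86857382, minus strand): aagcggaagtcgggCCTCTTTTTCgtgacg
Such a run over the start base was found in 19 of the 60 genes (31.7%), against 8.48% of the 27025 genes with a promoter entry. The tract begins at the transcript's own first base, so an annotated start a few bases off would place it beside the start base. The 8 runs shown begin from 1 base (Rps6) to at least 15 bases (Rpl34) before the annotated start, so a run is not by itself a TOP tract. That of Rpl34 reaches the first base of the window, so it may begin further upstream. Anywhere in the 30-base window a run of at least 6 was present in 37 of the 60 (61.7%), against 32.7% of all genes. The letters CCGGAAG, which fit ETS family factors, were present on either strand within 250 bases before to 50 after the start in 25 of the 60 (41.7%), against 9.93% of all genes. The E-box letters CACGTG, which MYC with MAX is known to bind, read alike on both strands and were present in 6 of the 60, against 8.09% of all genes. The letters AAGATGG (known for YY1) were present in 9 of the 60 against 7.28% of all genes, and TATAAA in 6 of the 60 against 15.7%, each on either strand. A match to such letters is a description and not a bound site. The E-boxes nearest the start were in Rpl23 and Rpl19, shown here with the E-box in capitals. That of Rpl23 began 3 bases before the start and so ran over it. That of Rpl19 began 19 bases before 1 of its annotated starts.
Rpl23 (chr11:97782425-97782454, minus strand): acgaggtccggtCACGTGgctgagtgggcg
Rpl19 (chr11:98026679-98026708, plus strand): tacccagaggacCACGTGaccaaacgccct
The median log2 difference between treated and vehicle tumors was -0.36 for the 19 genes with a run over the start base and -0.36 for the 38 tested genes with a promoter entry and no such run. For a run anywhere in the window it was -0.35 with (36 genes) and -0.37 without (21 genes). With CACGTG it was -0.36 (6 genes) and without it -0.34 (51 genes). With CCGGAAG it was -0.34 (24 genes) and without it -0.36 (33 genes). With AAGATGG it was -0.28 (9 genes) and without it -0.36 (48 genes). With TATAAA it was -0.40 (6 genes) and without it -0.33 (51 genes). These splits were not tested.

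Ribosomal protein mRNAs had lower fitted levels in GSK3326595 than in vehicle tumors in every gene tested, although no single gene passed the adjusted edgeR test. The 82 genes took up 3.65%, 3.45% and 4.59% of expected counts in GSK3326595 replicates 1 to 3, against 4.59%, 4.27% and 5.19% in vehicle replicates 1 to 3. The mean was 3.90 ± 0.608% in GSK3326595 and 4.69 ± 0.468% in vehicle (SD, n = 3 each), and the groups overlapped on this unscaled share, with GSK3326595 replicate 3 above vehicle replicate 2. With TMM scaling, the summed CPM of the set was 35549.8, 34729.5 and 42749 in GSK3326595 replicates 1 to 3, against 49199, 45753 and 49882 in vehicle replicates 1 to 3. On that scale every GSK3326595 library lay below every vehicle library. Of the 82 genes, 79 passed the filter on low counts. All 79 had a lower fitted level in GSK3326595, where 46.9% of all 17012 genes tested lay below 0. The median log2 difference was -0.34, equal to a level 21.2% lower, against 0.03 for all genes tested.

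No ribosomal protein gene passed edgeR's quasi-likelihood test after Benjamini-Hochberg adjustment over all genes, which called 0.0% of genes in either direction. At an unadjusted p under 0.05, 27 of the 79 were lower and 0 higher, that is 34.2%, against 3.81% of all genes tested lower at the same threshold and 5.45% higher. The number depended on single libraries: leaving out GSK3326595 replicate 1 gave 11, replicate 2 of that group 5 and its replicate 3 gave 41. Leaving out vehicle replicate 1 gave 4, vehicle replicate 2 also 4, and vehicle replicate 3 only 1. Over those same fits the median log2 difference stayed between -0.25 (without GSK3326595 replicate 2, the library that stood apart) and -0.41 (without GSK3326595 replicate 3). DESeq2 called 1 of the genes, Rps18, lower, against 0.588% of all genes, and none higher (1.09% of all genes). limma-voom called 0, with 32 at an unadjusted p under 0.05. In 56 of the 79 genes every GSK3326595 library lay below every vehicle library, against 7.66% of all genes tested, and in 0 did every one lie above (6.72%). In bulk tissue fewer cells rich in these mRNAs and less of the mRNA per cell cannot be told apart.

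**Figure D1:**
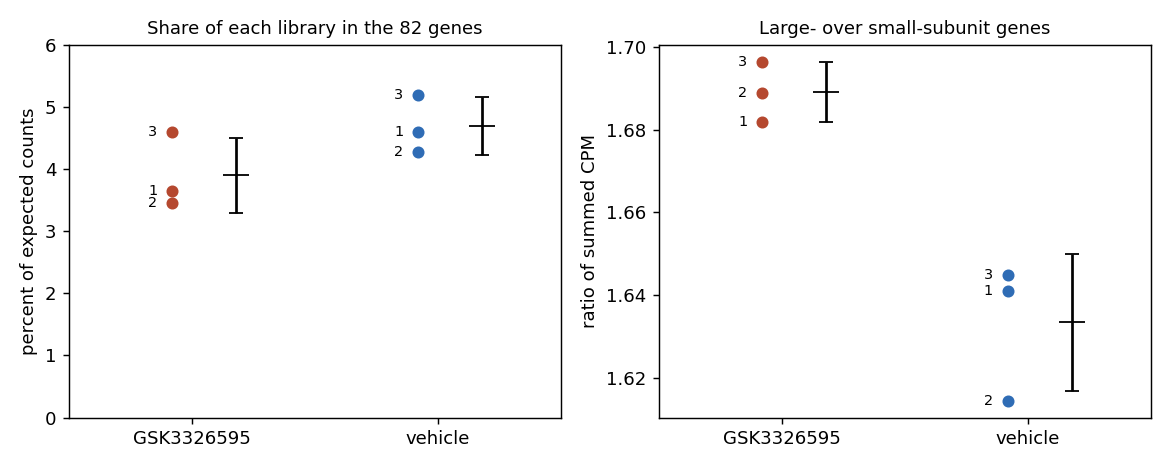
Left, percent of each library's expected counts in the 82 ribosomal protein genes; right, the summed CPM of the large-subunit genes divided by that of the small-subunit genes. Each point is a library with its replicate number, and the bar is the mean with SD (n = 3). GSK3326595 replicates 1 and 2 hold the lowest shares (3.65% and 3.45%), while the ratio is above 1.68 in every GSK3326595 library and below 1.65 in every vehicle library.

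The genes kept a similar order of libraries. Each gene's log2 CPM (TMM-scaled counts relative to library size) was set against its own mean over the 6 libraries. The median of these deviations over the 79 genes was -0.25, -0.28 and 0.00 in GSK3326595 replicates 1 to 3 and 0.20, 0.09 and 0.24 in vehicle replicates 1 to 3. GSK3326595 replicates 1 and 2 were the 2 lowest libraries in 66 of the 79 genes, against 9.72% of all genes tested. GSK3326595 replicate 3 lay between the groups: it was above both other GSK3326595 libraries in 69 of the 79 genes (32.5% of all genes tested), and above the lowest vehicle library in 23 (66.0% of all genes tested). Vehicle replicate 3 was the highest library in 50 (9.27% of all genes tested). Without the weakly expressed Rps4l and Rpl6l the log2 differences of 77 genes ran from -0.66 to -0.07 with an SD of 0.11, less than the SE of any single one of them.

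**Figure D2:**
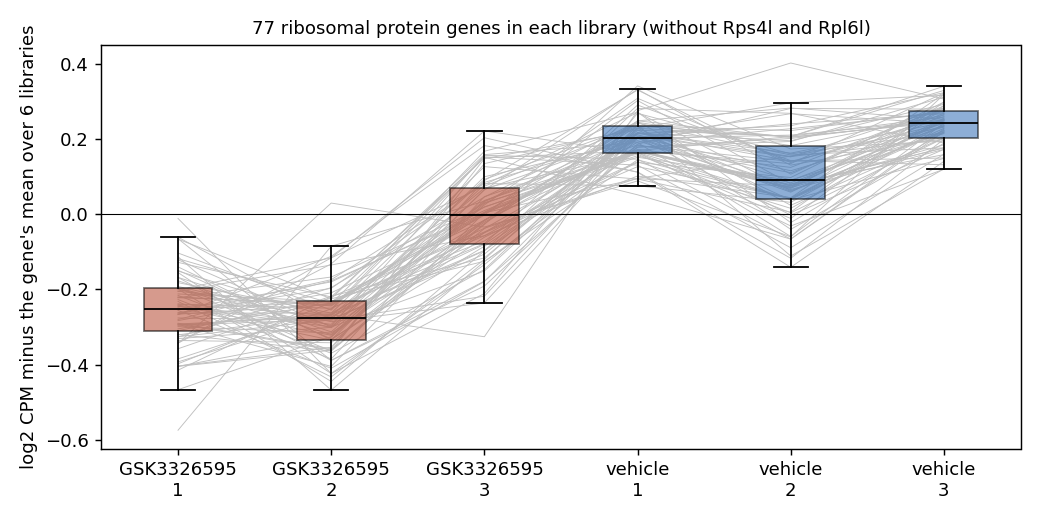
log2 CPM of 77 ribosomal protein genes minus each gene's own mean over the 6 libraries, by library; a grey line joins the values of 1 gene, boxes give the median and quartiles over genes, and whiskers reach up to 1.5 box heights. The medians of GSK3326595 replicates 1 and 2 lie at -0.25 and -0.28, GSK3326595 replicate 3 lies at 0.00, and the vehicle libraries lie between 0.09 and 0.24.

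Genes of the small subunit had a median log2 difference of -0.41 (32 genes, 15 at an unadjusted p under 0.05) and genes of the large subunit one of -0.33 (47 tested, 12 at that threshold). Over all genes tested 3.81% were lower at that threshold. The summed CPM of large-subunit genes over that of small-subunit genes was 1.68, 1.69 and 1.70 in GSK3326595 replicates 1 to 3, against 1.64, 1.61 and 1.64 in vehicle replicates 1 to 3. These ratios did not overlap between the groups. The small-subunit median was the lower of the pair under every scaling, filter, tool and left-out library that was tried.

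The 8 genes of smallest p were Rps18, Rps20, Rpl36, Rpl37a, Rpl9, Rps14, Rps4l and Rps4x. In each of them all GSK3326595 libraries lay below all vehicle libraries, as in 56 of the 79 genes tested and 7.66% of all genes. Picking by p favors this, so it adds no support. Positions are those of GENCODE M21 on GRCm38. Rps18 (chromosome 17, 33951999 to 33956001, minus strand), a protein of the small subunit's head, had 141, 154 and 147 CPM in the GSK3326595 libraries, against 224, 244 and 229 CPM in the vehicle libraries. Its log2 difference was -0.66 ± 0.15 (SE; edgeR adjusted p = 0.455), it ranged from -0.62 to -0.69 without single libraries, and DESeq2 gave an adjusted p of 0.00583. Here GSK3326595 replicate 3 was as low as the other treated libraries. Rps20 (chromosome 4, 3831334 to 3835665, minus strand), also of the head, had 325, 292 and 343 CPM in the GSK3326595 libraries, against 455, 477 and 484 CPM in the vehicle libraries (-0.56 ± 0.16; edgeR adjusted p = 0.485). Rpl36 (chromosome 17, 56613416 to 56614243, plus strand), a large-subunit protein, had 208, 208 and 217 CPM in the GSK3326595 libraries, against 293, 297 and 316 CPM in the vehicle libraries (-0.52 ± 0.15; edgeR adjusted p = 0.485). Rpl37a (chromosome 1, 72711290 to 72713813, plus strand), a zinc-binding large-subunit protein, had 345, 323 and 334 CPM in the GSK3326595 libraries, against 454, 474 and 466 CPM in the vehicle libraries (-0.48 ± 0.15; edgeR adjusted p = 0.507). In both Rpl36 and Rpl37a the range within each group was at most 0.11 on the log2 scale. Rpl9 on chromosome 5 had 403, 351 and 436 CPM in the GSK3326595 libraries, against 563, 576 and 565 CPM in the vehicle libraries (-0.52 ± 0.17; edgeR adjusted p = 0.518). Rps14, whose human counterpart is lost with the long arm deletion of 5q- syndrome, had 394, 338 and 388 CPM in the GSK3326595 libraries, against 504, 538 and 537 CPM in the vehicle libraries (-0.50 ± 0.16; edgeR adjusted p = 0.52). Rps4x, an X-linked small-subunit gene, had 724, 651 and 759 CPM in the GSK3326595 libraries, against 990.3, 981 and 1016 CPM in the vehicle libraries (-0.49 ± 0.17; edgeR adjusted p = 0.522). The 4 X-linked genes of the set, Rps4x, Rpl39, Rpl10 and Rpl36a, had log2 differences of -0.49, -0.42, -0.38 and -0.37, within the range of the other genes.

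**Figure D3:**
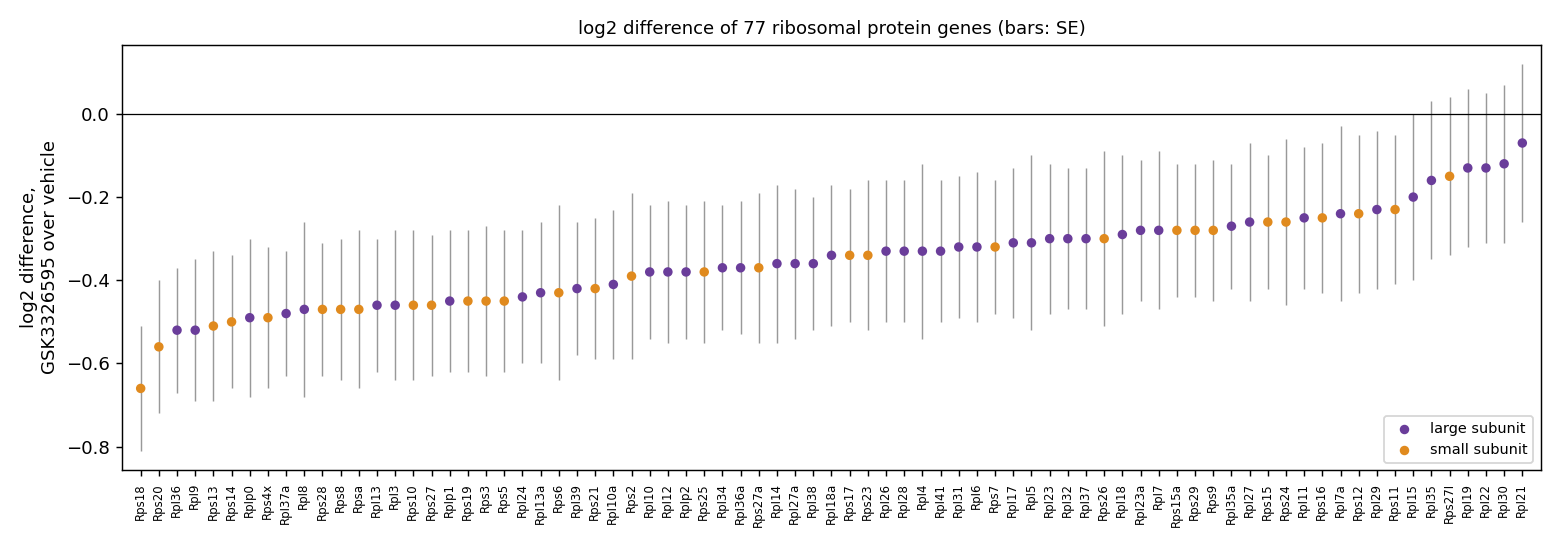
log2 difference, GSK3326595 over vehicle, of 77 ribosomal protein genes ordered by size; points are edgeR estimates coloured by subunit and bars are SE. Every point lies below 0, from -0.66 for Rps18 to -0.07 for Rpl21, and neighbouring genes differ by less than their SE.

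The stalk of the large subunit, which recruits the elongation factors, is built on Rplp0 with Rplp1 and Rplp2. Rplp0 had 1329, 1120.0 and 1426 CPM in the GSK3326595 libraries, against 1855, 1838 and 1739.7 CPM in the vehicle libraries (-0.49 ± 0.19; edgeR adjusted p = 0.524), and its groups did not overlap. Rplp1 had 728, 735 and 829 CPM in the GSK3326595 libraries, against 1046, 1029.8 and 1058 CPM in the vehicle libraries (-0.45 ± 0.17), likewise without overlap. Rplp2, named here for its place in the stalk after its values were seen, had 285, 282 and 318 CPM in the GSK3326595 libraries, against 411, 371 and 368 CPM in the vehicle libraries (-0.38 ± 0.16). Rpl5 and Rpl11 bind the 5S ribosomal RNA and, when not built into ribosomes, bind and inhibit Mdm2, the ligase that degrades p53. Rpl5 had 704, 805 and 1041 CPM in the GSK3326595 libraries, against 1055, 991 and 1105 CPM in the vehicle libraries (-0.31 ± 0.21; edgeR adjusted p = 0.693). Rpl11 had 395, 410.0 and 466 CPM in the GSK3326595 libraries, against 516, 462 and 529.9 CPM in the vehicle libraries (-0.25 ± 0.17; edgeR adjusted p = 0.69). In both, GSK3326595 replicate 3 lay above the lowest vehicle library, and Rpl5 was among the 4 genes with the widest range within a group (0.56 on the log2 scale).

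Among proteins with known modifications, Rps10, the substrate of PRMT5 in human cells, had 274, 289 and 369 CPM in the GSK3326595 libraries, against 449, 399 and 434 CPM in the vehicle libraries (-0.46 ± 0.18; edgeR adjusted p = 0.526). The groups did not overlap, but the difference missed the adjusted threshold as for every other gene. Rps6, the phosphorylated target of the S6 kinases, had 768, 795 and 1081 CPM in the GSK3326595 libraries, against 1278, 1113 and 1171 CPM in the vehicle libraries (-0.43 ± 0.21; edgeR adjusted p = 0.575). Rps2, a substrate of the related enzyme PRMT3, had 147, 206 and 224 CPM in the GSK3326595 libraries, against 254, 245 and 259 CPM in the vehicle libraries (-0.39 ± 0.20; edgeR adjusted p = 0.595). Of all reads assigned to Rps2 or to pseudogene rows named for it, 83.4% stood in the pseudogene rows, so its level is uncertain; with those rows added its log2 difference was -0.44. Rpl3, which lies close to the peptidyl transferase center, had 547, 544 and 678 CPM in the GSK3326595 libraries, against 820.3, 795 and 819.7 CPM in the vehicle libraries (-0.46 ± 0.18), with 37.7% of its reads in such rows and a difference of -0.43 once they were added. Rpsa, the small-subunit protein also known as the laminin receptor, had 1196, 1160.0 and 1466 CPM in the GSK3326595 libraries, against 1893, 1685 and 1709.8 CPM in the vehicle libraries (-0.47 ± 0.19; edgeR adjusted p = 0.533). In Rps6, Rps2, Rpl3 and Rpsa every GSK3326595 library lay below every vehicle library, with GSK3326595 replicate 3 the nearest to them. Rpl10, a protein that joins the large subunit late (known from yeast), had 783, 692 and 767 CPM in the GSK3326595 libraries, against 991, 947 and 978 CPM in the vehicle libraries (-0.38 ± 0.16). Rpl39 at the exit of the nascent peptide tunnel had 260.3, 208 and 241 CPM in the GSK3326595 libraries, against 308, 313 and 324 CPM in the vehicle libraries (-0.42 ± 0.16). Neither overlapped between the groups.

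The tissue-restricted paralogs were nearly silent. Rpl10l and Rpl39l, known from testis, had 0 counts in all 6 libraries, which allows up to 0.0895 to 0.108 CPM per library (3 counts; counting error only). Rpl3l, known from heart and skeletal muscle, had 0, 2 and 2 counts in the GSK3326595 libraries and 1, 3 and 4 in the vehicle libraries. Rps27l, a paralog of Rps27 that p53 is known to induce in human cells, had 104, 121 and 154 CPM in the GSK3326595 libraries, against 148, 129.6 and 144 CPM in the vehicle libraries (-0.15 ± 0.19; edgeR adjusted p = 0.859). Rps27 itself had 276, 216 and 273 CPM in the GSK3326595 libraries, against 336, 345 and 375 CPM in the vehicle libraries (-0.46 ± 0.17; edgeR adjusted p = 0.522), without overlap between the groups. Relative to Rps27, Rps27l stood at 37.8, 56.0 and 56.5% in GSK3326595 replicates 1 to 3, against 44.2, 37.6 and 38.3% in vehicle replicates 1 to 3; the groups overlapped through GSK3326595 replicate 1. Rps4l, annotated in GENCODE as a transcribed processed pseudogene although its symbol fits the choice, had 0.580, 1.64 and 0.902 CPM in the GSK3326595 libraries, against 2.42, 2.04 and 30.2 CPM in the vehicle libraries (-3.46 ± 1.17; edgeR adjusted p = 0.522). Vehicle replicate 3 stood far above the other 5 libraries, and the difference was -1.06 without it. Rpl6l, annotated as a processed pseudogene, had 1.81, 1.58 and 2.60 CPM in the GSK3326595 libraries, against 2.96, 1.87 and 2.60 CPM in the vehicle libraries (-0.31 ± 0.34), and its groups overlapped.

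Rpl22, whose loss in mice is known to raise its paralog Rpl22l1, had 213, 192 and 254 CPM in the GSK3326595 libraries, against 237, 219 and 266 CPM in the vehicle libraries (-0.13 ± 0.18; edgeR adjusted p = 0.876), and without GSK3326595 replicate 2 its difference was 0.01. Its groups overlapped. Rpl21, Rpl30 and Rpl19, named after their values were seen because they ended the order, had log2 differences of -0.07 ± 0.19, -0.12 ± 0.19 and -0.13 ± 0.19. Rpl22l1, which the symbol choice leaves out, had 36.8, 43.1 and 47.3 CPM in the GSK3326595 libraries, against 66.2, 78.0 and 75.8 CPM in the vehicle libraries. Its log2 difference of -0.79 ± 0.17 (edgeR adjusted p = 0.455) exceeded that of every ribosomal protein gene in the set but Rps4l, and its groups did not overlap.

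Levels per length, as CPM per kilobase of the shortest transcript with a RefSeq mRNA, differed 45.9-fold among the 77 genes above 20 CPM, around a median of 642.1. The highest mean over the 6 libraries was that of Rplp1, with 1531 ± 113 CPM per kilobase in GSK3326595 and 2094 ± 28.3 in vehicle (SD, n = 3 each). It was followed by Rps24 with 1559 ± 289 CPM per kilobase in GSK3326595 and 1868 ± 121 in vehicle, Rps12 with 1491 ± 196 CPM per kilobase in GSK3326595 and 1766 ± 133 in vehicle, Rpl23a with 1299.9 ± 126 CPM per kilobase in GSK3326595 and 1576 ± 66.3 in vehicle and Rpl41, which encodes the shortest ribosomal protein, with 1214 ± 91.7 CPM per kilobase in GSK3326595 and 1527 ± 153 in vehicle. The mean levels of Rps24 and Rps12 differed by less than the SD of either in GSK3326595. At the low end of these 77 were Rpl29 with 36.3 ± 4.86 CPM per kilobase in GSK3326595 and 42.7 ± 5.72 in vehicle, Rps15a with 52.4 ± 5.55 CPM per kilobase in GSK3326595 and 63.5 ± 4.02 in vehicle and Rps20 with 86.4 ± 6.95 CPM per kilobase in GSK3326595 and 127 ± 4.02 in vehicle. The annotated transcripts of Rps15a and Rps20 are 5179 and 3706 bases long, where the median of the ribosomal protein genes is 789, which lowers their value per kilobase. Below all of them lay Rps4l and Rpl6l. By level, the median log2 difference was -0.37 in the 25 genes of lowest CPM, -0.33 in the 27 of the middle and -0.34 in the 25 of highest CPM. By length, it was -0.35 for the 62 genes with transcripts up to 1200 bases and -0.34 for the 15 longer ones.

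Further ribosomal protein genes that the symbol choice misses also had differences below 0. Rps3a1, Fau (whose product is fused to a ubiquitin-like protein) and Gnb2l1, the table's symbol for the small-subunit scaffold Rack1, had log2 differences of -0.30 ± 0.19, -0.32 ± 0.18 and -0.43 ± 0.18. Gnb2l1 had 652, 731 and 855 CPM in the GSK3326595 libraries, against 988, 977 and 1059 CPM in the vehicle libraries, without overlap. None of these 3 had an unadjusted p under 0.05 by edgeR. Among 4 further paralogs Rpl22l1 was the only one at that threshold, and Rpl36al had a log2 difference of 0.00 ± 0.20. Of 270 pseudogene rows named for ribosomal proteins, 57 passed the filter, and 51 of these were lower with a median of -0.38 (8 at an unadjusted p under 0.05). Over all genes tested 46.9% lay below 0, and 3.81% were lower at that threshold. The share of a library in those rows was 0.157 to 0.208% in GSK3326595 and 0.202 to 0.230% in vehicle. Reads from a gene and its near-identical pseudogenes cannot be fully separated, and 5 genes (Rps2, Rpl34, Rpl35a, Rpl3 and Rpl30) had over 10% of such reads in pseudogene rows. With the pseudogene rows added to their genes the median log2 difference was still -0.34.

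Genes of ribosome assembly and mitochondrial ribosomal proteins had medians above 0, as did all genes tested (0.03, with 46.9% below 0). At an unadjusted p under 0.05 by edgeR, 3.81% of all genes tested were lower and 5.45% higher. Of 47 nucleolar ribosome biogenesis genes, 39 were higher, with a median log2 difference of 0.15, and 0 had an unadjusted p under 0.05 in either direction. Their median was 0.37 without GSK3326595 replicate 1 and -0.09 without GSK3326595 replicate 3. Their deviations by library were -0.49, 0.11 and 0.54 in GSK3326595 replicates 1 to 3 and 0.03, -0.27 and 0.12 in vehicle replicates 1 to 3. Gar1, of the pseudouridylation complex, differed by 0.50 ± 0.35 on the log2 scale (SE; edgeR adjusted p = 0.707). Ribosomal protein chaperones and importers had a median of 0.08 (9 of 11 higher, 0 at an unadjusted p under 0.05), which was -0.19 without GSK3326595 replicate 3 and -0.03 without vehicle replicate 2. Mitochondrial ribosomal proteins, encoded in the nucleus for the organelle's own ribosomes, had a median of 0.06 (28 of 76 lower, 0 at an unadjusted p under 0.05), which was -0.05 without GSK3326595 replicate 3 and -0.04 without vehicle replicate 2. The difference between these lists and the ribosomal protein genes was not tested.

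Of 17 other mRNAs with a TOP tract, 14 were lower with a median of -0.15, and 2 of them, Eef2 and Eef1b2, had an unadjusted p under 0.05. Eef2, the translocation factor of elongation, had 1764, 2118 and 2072 CPM in the GSK3326595 libraries, against 2853, 2863 and 2567 CPM in the vehicle libraries (-0.48 ± 0.19; edgeR adjusted p = 0.527). Eef1b2, a subunit of the exchange factor for elongation factor 1, had 367, 400.4 and 513 CPM in the GSK3326595 libraries, against 610.4, 586 and 574 CPM in the vehicle libraries (-0.47 ± 0.19; edgeR adjusted p = 0.533). Eef1a1 had 4305, 7225 and 7965 CPM in the GSK3326595 libraries, against 9601, 9281 and 10048 CPM in the vehicle libraries (-0.57 ± 0.29). In all 3 the groups did not overlap, which picking them by p favors. The median of the list was -0.02 without GSK3326595 replicate 1, and -0.29 without GSK3326595 replicate 3. Of 15 mTOR pathway genes 12 were lower (median -0.05, 0.04 with library totals only), and Eif4ebp2, a translation repressor, had 27.0, 41.1 and 34.4 CPM in the GSK3326595 libraries, against 58.1, 64.9 and 41.5 CPM in the vehicle libraries (-0.68 ± 0.24; edgeR adjusted p = 0.522). Of 11 genes of the p53 arm 7 were higher (median 0.16). Zmat3 at 0.86 ± 0.26 (edgeR adjusted p = 0.493) and Eda2r at 2.31 ± 0.56 (edgeR adjusted p = 0.455) were the only ones at an unadjusted p under 0.05. Of all genes tested 46.9% lay below 0, and at that threshold 3.81% were lower and 5.45% higher. The 6 genes of PRMT5 and its partners had a median of 0.12 (-0.05 without GSK3326595 replicate 3), and none reached that threshold.

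Nuclear genes of oxidative phosphorylation, which like ribosomal protein genes have short and abundant mRNAs, had a similar median of -0.31 (70 of 72 lower, 16 at an unadjusted p under 0.05, or 22.2%), but another order of libraries. Their deviations were -0.28, 0.05 and -0.24 in GSK3326595 replicates 1 to 3 and 0.27, 0.18 and 0.04 in vehicle replicates 1 to 3, with GSK3326595 replicate 2 near 0 and GSK3326595 replicate 3 low. The 1648 other protein-coding genes with transcripts up to 1200 bases had a median log2 difference of 0.02 (4.13% lower at an unadjusted p under 0.05), and the 12044 longer ones had a median of 0.05 (3.51%).

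**Figure D4:**
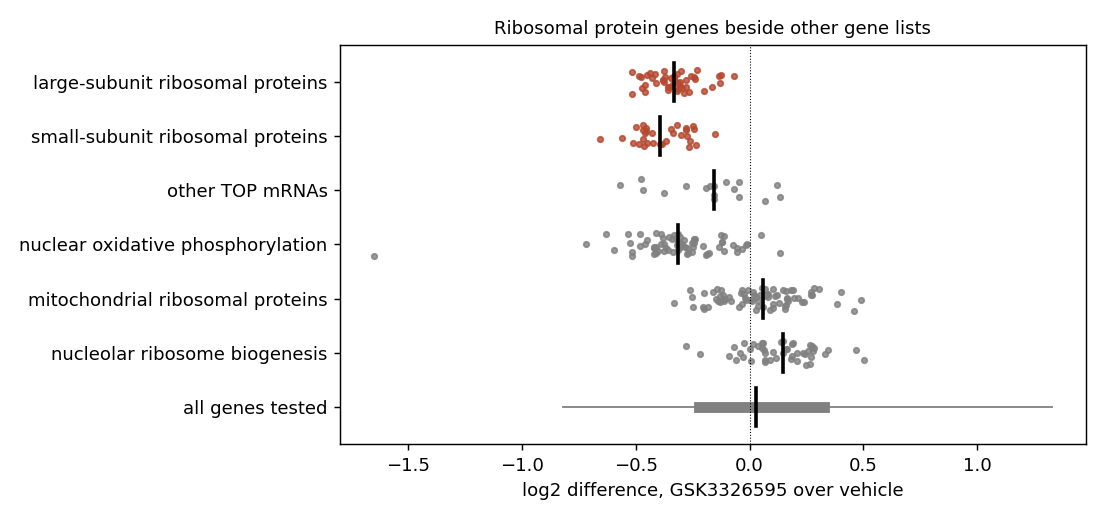
log2 difference, GSK3326595 over vehicle, of single genes by list (points) with the list's median (black bar); Rps4l at -3.46 is left out, and for all 17012 genes tested the thick line spans the quartiles and the thin line all but the outermost 5% on each side. The ribosomal protein genes lie wholly below 0, as do most oxidative phosphorylation genes, while mitochondrial ribosomal proteins and nucleolar genes scatter on both sides of 0.

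Markers of cell types were summed in each library, and the sums of some lists differed between groups. No marker passed the adjusted edgeR test. The 7 hepatocyte markers found by symbol (Alb, Apoa1, Ttr and others; 2 higher, 5 lower) summed to 8843 to 28298 CPM in GSK3326595 and 16486 to 33236 CPM in vehicle. Such levels go with the liver part of the label. Livers without MYC were not analysed, so these markers do not tell tumor from other liver. The lowest sum was in GSK3326595 replicate 3 and the next in vehicle replicate 3, the libraries with the higher ribosomal protein share in their group. T cell markers (all 5 tested of 8 higher) summed to 8.08 to 16.5 CPM in GSK3326595 and 1.47 to 2.48 CPM in vehicle. Dendritic cell markers (5 of 5 higher) summed to 12.1 to 24.7 CPM in GSK3326595 and 3.92 to 7.10 CPM in vehicle, stellate markers (5 of 5 higher) to 257 to 329.7 CPM in GSK3326595 and 70.7 to 232 CPM in vehicle and B cell markers (4 tested of 6, all higher) to 8.84 to 37.2 CPM in GSK3326595 and 5.07 to 8.32 CPM in vehicle. For T cell, B cell, dendritic and stellate markers the sums did not overlap between the groups. Gene by gene, GSK3326595 lay wholly above vehicle in 5 of 5 T cell, 4 of 5 dendritic, 1 of 4 B cell and 1 of 5 stellate markers tested, against 6.72% of all genes. Cd247, Cd2, Cd28 and Flt3 averaged 0.264, 0.235, 0.238 and 0.244 CPM in vehicle. Markers so low there passed the filter on low counts through the GSK3326595 libraries. This favors higher values among the T cell and dendritic markers tested, so these counts add no support. The B cell sums were nearest, at 8.84 CPM in GSK3326595 replicate 3 and 8.32 CPM in vehicle replicate 3. The B cell median log2 difference was 0.92, and 0.31 to 1.46 without single libraries. Macrophage markers (5 of 6 higher) summed to 444 to 1088 CPM in GSK3326595 and 332 to 552 CPM in vehicle and endothelial ones (4 of 5 higher) to 96.2 to 191 CPM in GSK3326595 and 76.1 to 134 CPM in vehicle. Neutrophil markers (3 tested of 6, all lower) summed to 0.0722 to 12.6 CPM in GSK3326595 and 1.58 to 166 CPM in vehicle. The 166 CPM came from vehicle replicate 2 alone, against 4.87 and 1.58 CPM in vehicle replicates 1 and 3. Erythroid markers (1 of 5 higher) summed to 215 to 364 CPM in GSK3326595 and 208 to 495 CPM in vehicle. Biliary markers (3 of 4 tested higher) summed to 13.1 to 63.3 CPM in GSK3326595 and 11.1 to 26.0 CPM in vehicle. No marker of any list was at 0 in all 6 libraries. Mitochondrially encoded genes took 5.77 to 6.60% in GSK3326595 and 5.55 to 6.63% in vehicle, and rRNA with other abundant noncoding RNA took 9.24 to 9.58% in GSK3326595 and 8.72 to 9.20% in vehicle. Mitochondrial rRNA counts in both shares. The part of these differences in the lower ribosomal protein level was not tested. With mitochondrially encoded genes, rRNA and other abundant noncoding RNA all left out the median log2 difference was still -0.34.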

How the data were processed

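Stranded total RNA libraries of 3 GSK3326595 and 3 vehicle liver tumors were sequenced, as the labels' protocols state. In the deposited file the authors give expected counts for each gene and sample; 12.3% of the values were not whole. The submitters' processing notes name cutadapt, STAR, Picard and RSEM and the build mm10; versions and the annotation release are not given in the sources used here. Coordinates and lengths came from GENCODE M21 of the same build, matched by Ensembl ID (47224 of 47643 genes, all 82 members).

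Expected counts were rounded to whole numbers, filtered with filterByExpr (minimum count 10, leaving 17012 genes), and TMM-scaled. edgeR 4.0.16 (R 4.3.3) gave two-sided quasi-likelihood p-values, which were adjusted by Benjamini-Hochberg over all genes at a threshold of 0.05. log2 differences are GSK3326595 over vehicle, and SE was taken as their size over the root of F. log2 CPM used a prior count of 2. edgeR's common biological coefficient of variation came to 0.409. DESeq2 1.42.0 and limma 3.58.1 (voom) were run beside it, and all 3 tools were tested on simulated counts. Alternatives were other scaling, filters and tools, pseudogene rows added to their genes, a replicate block and single libraries left out. In a further one mitochondrially encoded genes, rRNA and other abundant noncoding RNA were left out together.

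The members and lists were chosen with earlier results of these data known. Genes named were those of fixed roles or paralogs, the 8 of smallest p per direction (all lower here), the 5 highest and 5 lowest per kilobase, and the 4 of widest range within a group; other members are named where said. Up to 3 genes of smallest p could be named per list, and 1 gene is not reported here.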

Additional observations from a re-analysis of the deposited data

How the results depend on the processing

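All 79 tested ribosomal protein genes stayed below 0 under every scaling, filter and tool that was tried, except Rpl21 at 0.02 with library totals only. Without single libraries the exceptions were Rpl21 (0.01 without GSK3326595 replicate 1, 0.03 without GSK3326595 replicate 2 and 0.03 without vehicle replicate 3), Rpl19 (0.00 without GSK3326595 replicate 2) and Rpl22, which ranged from -0.23 to 0.01. With no filter on low counts 80 genes were tested and all 80 lay below 0. The median log2 difference of the set ran from -0.26 (library totals only, with an all-gene median of 0.12 in place of 0.03) to -0.35 over scaling, filter and tool, and from -0.41 to -0.25 without single libraries. The 27 genes at an unadjusted p under 0.05 became 4 with library totals only, 7 with no filter on low counts, 14 with at least 1 CPM in 3 libraries and 1 to 41 without single libraries; the cause was not tested. The 0 genes lower after adjustment by edgeR became 1 by DESeq2 (Rps18). Leaving out mitochondrially encoded genes, rRNA and other abundant noncoding RNA makes the total smaller. The set then took 4.14%, 3.95% and 5.23% of counts in GSK3326595 replicates 1 to 3, against 5.21%, 4.87% and 5.88% in vehicle replicates 1 to 3. With the replicate block 18 genes had an unadjusted p under 0.05 and the median was -0.35. The labels do not say whether the replicate numbers pair the samples. Deviations from the group means correlated at -0.07, 0.07 and 0.32 for same-numbered libraries. GSK3326595 replicate 1 correlated best with vehicle replicate 2 (0.32), and GSK3326595 replicate 3 with vehicle replicate 3 (0.32). With 3 libraries per group such correlations cannot decide on pairing.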

Other observations

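Within the pseudogene rows, Rpl35a-ps2 and Rpl35a-ps4 held the same expected counts in every library after rounding, with 8.16, 22.1 and 15.4 CPM in the GSK3326595 libraries and 31.3, 25.7 and 28.8 CPM in the vehicle libraries, so the pair adds 1 measurement and not 2 to the count of lower pseudogene rows. Rpl36a-ps2 had 1.39, 1.36 and 1.48 CPM in the GSK3326595 libraries, against 2.36, 2.25 and 2.48 CPM in the vehicle libraries, with a log2 difference of -0.74 ± 0.26 (edgeR adjusted p = 0.522). Of the 270 rows, 98 had no count in any library. Cox7a1, the muscle and heart form of a cytochrome oxidase subunit, had 1.55, 0.806 and 2.06 CPM in the GSK3326595 libraries, against 5.26, 6.22 and 2.36 CPM in the vehicle libraries (-1.65 ± 0.50; edgeR adjusted p = 0.499), the most negative difference in the oxidative phosphorylation list. Atp5o of the ATP synthase had 200.2, 213 and 190.1 CPM in the GSK3326595 libraries, against 343, 323 and 267 CPM in the vehicle libraries (-0.63 ± 0.17; edgeR adjusted p = 0.46) and Ndufb6 of complex I had 33.2, 44.7 and 29.3 CPM in the GSK3326595 libraries, against 63.0, 64.0 and 49.4 CPM in the vehicle libraries (-0.72 ± 0.22; edgeR adjusted p = 0.495). In each of these 3, picked by p, the groups did not overlap, as in 30 of the 72 tested genes of that list and 7.66% of all genes. GSK3326595 replicate 3 was the lowest library in Atp5o and Ndufb6.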
